A study of Mus musculus with 6 samples.

Results

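The tumour necrosis factor (TNF) superfamily of ligands and the receptors that bind them were examined in regulatory T (Treg) cells of Batf+/+ and Batf-/- mice. Batf is an AP-1 transcription factor that binds DNA together with Jun proteins. The members were 45 listed genes, 27 receptors and 18 ligands, and a member counted as measured when at least 1 probe set was annotated to it and to no other gene. This left 40 genes, 26 receptors and 14 ligands, read by 68 of the 34945 probe sets with 1 gene and standing among 18193 genes in all. Tnfrsf26, Tnfsf12, Tnfsf13, Tnfsf15 and Tnfsf18 had no such probe set and were not analysed as genes.

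Both groups were CD4+ cells of C57BL/6 mice that carried human CD2 as a reporter of FoxP3 (FoxP3hCD2), isolated from lymph node and spleen and not cultured. One group came from Batf+/+ mice and the other from Batf-/- mice, with 3 arrays each. The labels give the Batf genotype for the mouse and name no restriction to Treg cells, and they give no age. They call the populations triplicates and do not say whether mice were pooled or shared, so the spread behind each p-value is that of these 6 samples and may in part be technical.

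TNF ligands are mostly membrane-bound trimers that cluster receptors on a neighbouring cell. Receptors without a death domain recruit TRAF adaptors and activate NF-kB, which in T cells supports survival and costimulation, while receptors with a death domain can trigger caspases. Treg cells are known for high levels of the costimulatory receptors GITR (Tnfrsf18), OX40 (Tnfrsf4) and TNF receptor type II (Tnfrsf1b), and TNF-family signals support their development and expansion.

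Each value is on the log2 scale with the Batf+/+ median set to 0, so it shows a difference between samples for a gene and not how abundant the transcript was. A log2 difference is Batf-/- minus Batf+/+, and a gene was called changed at a limma adjusted p below 0.05 over all 18193 genes. Batf itself had a log2 difference of -2.89 (adjusted p = 0.000202), with -3.13, -3.16 and -2.37 on the Batf-/- arrays. Absolute levels are not held in the values, so whether any marker was near background could not be read. Of the 6 Treg and T cell markers examined 0 were called, but the arrays of 4 (66.7%) did not overlap between the genotypes, beside 12% of all genes. Of those 4, 3 were lower, Foxp3 at -0.12, Cd3e at -0.09 and Ikzf2, the lowest, at -0.51 (limma adjusted p = 0.0526). The other, Il2ra, was higher at 0.21. Ctla4 (-0.25) and Cd4 (0.009) overlapped. Batf-/- array 3 differed from the other arrays in the mean of 6 B cell markers, which was 0.50 there and between -0.06 and 0.07 on the other 5 arrays. Myeloid markers overlapped between the genotypes, with means over 7 genes of -0.08 to 0.13 in Batf+/+ and -0.14 to 0.20 in Batf-/- arrays. The means of NK cell markers (4 genes) and CD8 T cell markers (2 genes) also overlapped. By gene, 1 of the 4 NK markers (25%) did not, Eomes. It read -0.07, 0.002 and -0.04 on the Batf+/+ arrays and 0.10, 0.20 and 0.84 on the Batf-/- arrays (limma adjusted p = 0.574). The means of the 4 plasma cell markers did not overlap, at -0.02 to 0.03 in Batf+/+ and -0.28 to -0.14 in Batf-/- arrays. By gene, 2 of these 4 (50%) did not overlap, Sdc1 (-0.13) and Prdm1. Xbp1 and Jchain overlapped, and Jchain was above 0 (0.11). Prdm1, which effector Treg cells also express, was the 1 called marker (difference -0.78, limma adjusted p = 0.0132). It read -0.78, -0.99 and -0.52 on the Batf-/- arrays, so the separation of the plasma cell means leaned on this gene.

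In Batf-/- Treg cells 3 ligands fell, and 0 of 26 receptors were called. Fasl, the ligand that triggers death through Fas, was 1.88-fold lower, Tnfsf14 (LIGHT), the ligand of HVEM and of the lymphotoxin beta receptor, was 1.71-fold lower, and Tnfsf11 (RANKL), the ligand of RANK, was 1.64-fold lower. The 3 called members are 7.5% of the 40 measured, beside 1.14% called among all genes (0.83% lower and 0.313% higher), and 0 members rose. They are 21.4% of the 14 ligands. At 1.14% a set of 26 receptors may hold no call, and whether ligands and receptors differed in their calls was not tested. In bulk cells, fewer cells that express a gene and less RNA per cell cannot be told apart. The median log2 difference was 0.01 over the 40 members and 0.0047 over all genes, with 20 members below 0 and 20 above, beside 48.2% of all genes below 0. The median size of the difference, whatever its sign, was 0.13 over the members and 0.066 over all genes.

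**Figure D1:**
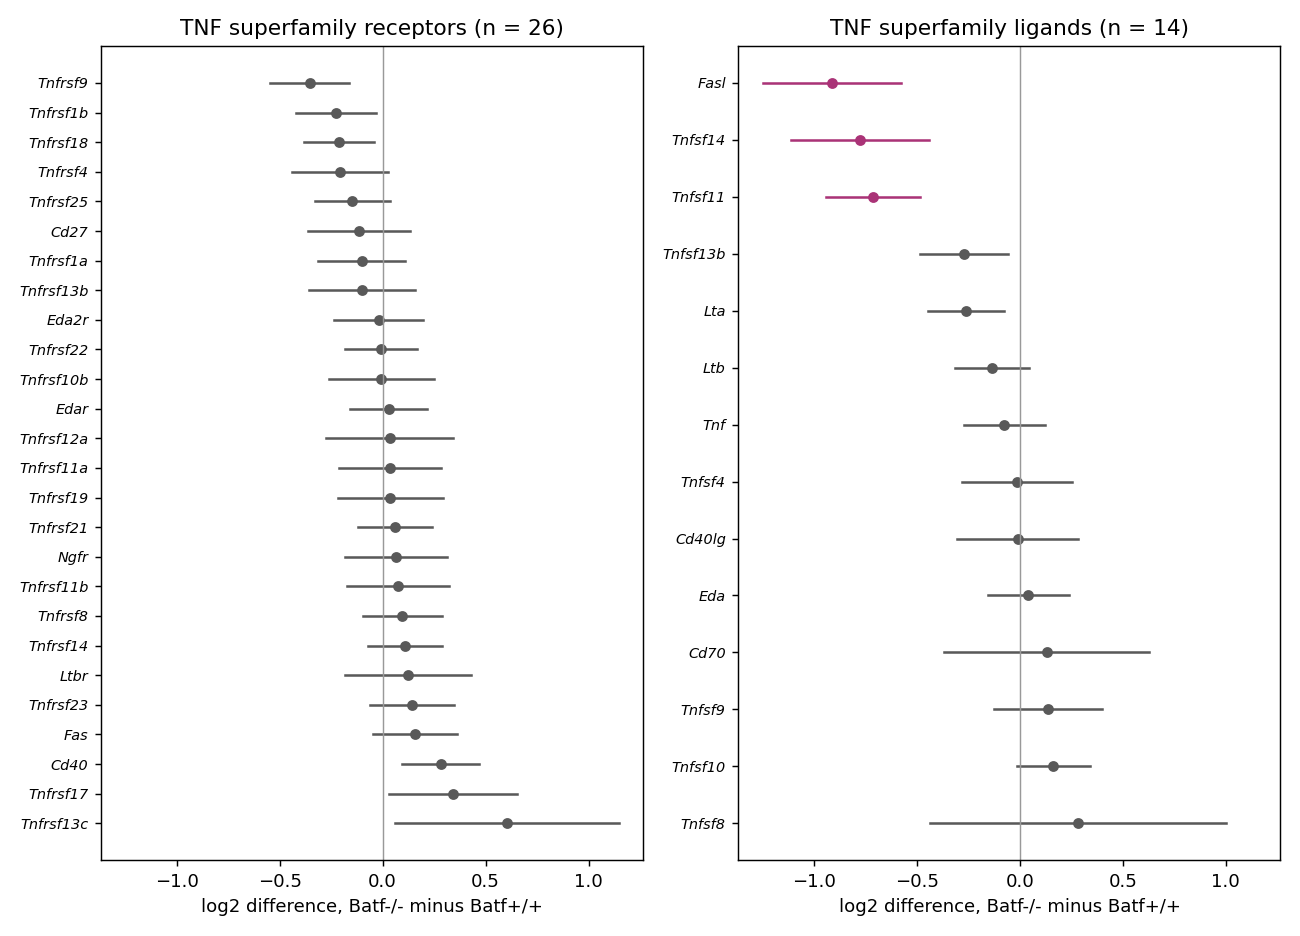
Log2 difference (Batf-/- minus Batf+/+, x axis) of the 26 measured receptors (left) and 14 measured ligands (right), with 95% intervals from limma as bars. Purple marks the 3 called genes, Fasl, Tnfsf14 and Tnfsf11, whose intervals lie furthest below 0, while the highest receptor, Tnfrsf13c, has a wide interval.

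Tnfsf11 is best known as the signal for osteoclast formation and lymph node development, and activated T cells make it. It read 0.15, 0.00 and -0.08 on Batf+/+ arrays 1, 2 and 3 and -0.71, -0.83 and -0.53 on Batf-/- arrays 1, 2 and 3. All 3 Batf-/- arrays were below all 3 Batf+/+ arrays, and the gap between the groups exceeded the range within either one. The log2 difference was -0.71 ± 0.10 (SE, n = 3 per genotype, limma adjusted p = 0.0107, 95% interval -0.94 to -0.49). Its 2 probe sets gave nearly the same difference, -0.714 each, and 1 of them was called when every probe set was tested by itself, as were 0.713% of the 34945 probe sets with 1 gene. Leaving out Batf+/+ array 1 or 2 took the adjusted p to 0.0556 or 0.0558, with differences of -0.65 and -0.73, and quantile normalization took it to 0.0871.

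Fasl is made by activated and cytotoxic T cells and is needed for the removal of activated lymphocytes. It read 0.30, -0.06 and -0.06 on the Batf+/+ arrays and -0.62, -0.78 and -1.14 on the Batf-/- arrays. The groups did not overlap, with Batf-/- array 3 lowest and Batf+/+ array 1 highest. The log2 difference was -0.91 ± 0.15 (SE, n = 3 per genotype, limma adjusted p = 0.0228, 95% interval -1.25 to -0.57), the largest of the measured members. Its 2 probe sets gave -0.92 and -0.90, and neither was called by itself, the lower adjusted p being 0.0616. Leaving out Batf+/+ array 1, 2 or 3 gave an adjusted p of 0.0868, 0.0651 or 0.0524, leaving out Batf-/- array 2 gave 0.0681 and quantile normalization gave 0.0601, with differences between -0.97 and -0.74.

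Tnfsf14 costimulates T cells through HVEM. It read 0.00, -0.35 and 0.13 on the Batf+/+ arrays and -1.02, -0.93 and -0.58 on the Batf-/- arrays. The groups did not overlap, but Batf+/+ array 2 lay closer to Batf-/- array 3 than any other pair across the genotypes. The log2 difference was -0.77 ± 0.15 (SE, n = 3 per genotype, limma adjusted p = 0.0497, 95% interval -1.11 to -0.44). Its 2 probe sets gave -0.78 and -0.77, the latter called by itself (adjusted p = 0.0461). This was the least firm of the 3 calls by the number of alternative settings that kept it, 5 of 14. With the replicate number as a block in the fit, its limma adjusted p was 0.0146, below that of Tnfsf11 (0.0212). Leaving out Batf+/+ array 1 or 3 gave an adjusted p of 0.208 or 0.160, and leaving out Batf-/- array 1 or 2 gave 0.125 or 0.184. Array weights gave 0.0562, and quantile normalization gave a difference of -0.49 and an adjusted p close to 1. It was also 0.0688 with the median of a gene's probe sets, 0.0535 without probe sets of shared sequence and 0.05002 with robust eBayes, settings that left its own difference at -0.77.

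**Figure D2:**
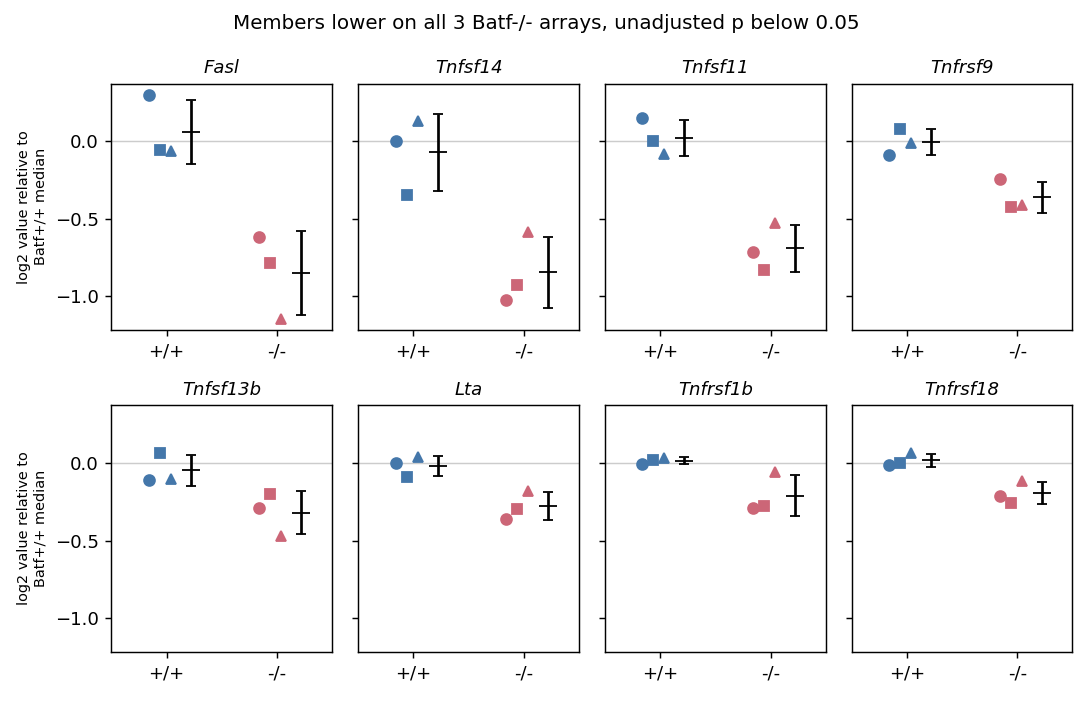
Values on each array (y axis, log2 relative to the Batf+/+ median) for the 8 members that were lower on all 3 Batf-/- arrays at an unadjusted p below 0.05. Blue is Batf+/+, red is Batf-/-, circle, square and triangle are arrays 1, 2 and 3, and bars are the mean ± SD. Fasl, Tnfsf14 and Tnfsf11 stand further from the Batf+/+ arrays than the other 5 genes.

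The promoters of the called ligands are shown because Batf binds DNA as a dimer with Jun proteins at AP-1 sequences, and that of Tnfrsf9 because it was the receptor with the lowest value. Each runs from 250 bases before to 50 after a RefSeq start site (GRCm38.p6), read along the gene, with the AP-1 letters TGANTCA in capitals where they occur. These letters read the same on both strands. The windows are chr17:57194132-57194431 (minus strand) for Tnfsf14, chr4:150927749-150928048 (plus strand) for Tnfrsf9, chr14:78307994-78308293 (minus strand) for Tnfsf11 and chr1:161788446-161788745 (minus strand) for Fasl.
Tnfsf14: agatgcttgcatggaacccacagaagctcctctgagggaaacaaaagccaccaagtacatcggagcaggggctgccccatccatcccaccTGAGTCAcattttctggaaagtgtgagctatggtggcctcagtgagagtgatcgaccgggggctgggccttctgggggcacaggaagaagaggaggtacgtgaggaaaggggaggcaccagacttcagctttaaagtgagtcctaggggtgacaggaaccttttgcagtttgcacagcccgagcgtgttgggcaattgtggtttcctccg
Tnfrsf9: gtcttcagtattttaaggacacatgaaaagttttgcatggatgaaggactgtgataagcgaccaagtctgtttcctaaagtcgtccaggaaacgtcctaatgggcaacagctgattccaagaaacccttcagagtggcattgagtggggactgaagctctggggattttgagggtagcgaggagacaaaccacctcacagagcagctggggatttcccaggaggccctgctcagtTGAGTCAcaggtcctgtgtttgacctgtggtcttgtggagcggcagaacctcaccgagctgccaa
Tnfsf11: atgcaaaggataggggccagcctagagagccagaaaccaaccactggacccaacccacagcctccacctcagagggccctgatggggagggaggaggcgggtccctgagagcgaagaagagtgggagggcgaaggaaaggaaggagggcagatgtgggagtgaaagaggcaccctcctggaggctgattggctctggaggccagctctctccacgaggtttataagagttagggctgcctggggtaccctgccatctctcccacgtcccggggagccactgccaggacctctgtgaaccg
Fasl: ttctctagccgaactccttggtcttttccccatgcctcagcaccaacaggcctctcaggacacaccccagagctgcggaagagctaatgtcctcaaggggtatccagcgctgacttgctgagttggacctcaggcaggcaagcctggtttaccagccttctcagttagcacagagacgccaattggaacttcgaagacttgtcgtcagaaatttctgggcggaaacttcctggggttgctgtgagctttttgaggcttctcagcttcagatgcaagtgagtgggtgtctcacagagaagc
Tnfsf14 held 1 match, TGAGTCA, which began 160 bases before the start site. Tnfrsf9 has 2 listed start sites, and the window shown held 1 match, which began 15 bases before its start site, while the window of the other start site held 0. The windows of Tnfsf11 and Fasl held 0 matches, which says only that these letters are not in these windows. RefSeq windows were found for 32 of the 40 measured members, 36 windows in all. The letters occurred in 6 of these windows (16.7%) and in 7.81% of the 32851 windows of all genes. The other windows with a match belonged to Tnfrsf8, Fas and Tnfsf13b, the last with the same site in 2 overlapping windows. A match is a description of the letters and not a site of binding.

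The TNF and lymphotoxin-type ligands all had differences below 0, with the call made for Tnfsf14 alone. Lta, which forms lymphotoxins needed for lymphoid tissue, read 0.00, -0.09 and 0.04 on the Batf+/+ arrays and -0.36, -0.30 and -0.18 on the Batf-/- arrays. Its groups did not overlap, yet the log2 difference of -0.26 ± 0.08 (SE) did not pass over all genes (limma adjusted p = 0.311). Ltb, the membrane anchor of the lymphotoxin heterotrimer, read 0.00, -0.02 and 0.12 against -0.18, -0.08 and -0.04, again without overlap (difference -0.13, adjusted p = 0.867). Tnf, the inflammatory founding member, read 0.00, -0.08 and 0.08 against -0.20, -0.01 and -0.01, and its groups overlapped (difference -0.07, adjusted p = 0.999).

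Ligands that costimulate T cells or B cells had no call among 5 genes, beside 1.14% of all genes, a share at which so few may hold none. Cd40lg, the helper signal for B cells, read 0.00, 0.18 and -0.32 on the Batf+/+ arrays and -0.17, -0.07 and 0.08 on the Batf-/- arrays. Its range was wider in Batf+/+ than in Batf-/- cells, and the difference of -0.009 had a 95% interval of -0.30 to 0.28. Tnfsf8, the ligand of CD30, read 0.00, -0.20 and 0.02 against 1.13, -0.18 and -0.29. Batf-/- array 1 alone was high, giving the largest SD of any member in either genotype (0.787), and the difference of 0.28 became -0.17 without that array. Cd70, the ligand of Cd27, also spread widely on the Batf-/- arrays (SD 0.507), at 0.09, -0.49 and 0.52, and its difference of 0.13 became -0.11 without Batf-/- array 3. Tnfsf9, the ligand of CD137, and Tnfsf4, the ligand of OX40, had differences of 0.14 and -0.015 with overlapping arrays. Leaving out Batf+/+ array 1 or 3 took Tnfsf9 to 0.23 or 0.01, and Tnfsf4 ranged from -0.09 to 0.10 when single arrays were left out, highest when Batf-/- array 1 was dropped.

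The remaining ligands were Tnfsf13b, Tnfsf10 and Eda. Tnfsf13b (BAFF), the survival factor of B cells, read -0.11, 0.07 and -0.10 on the Batf+/+ arrays and -0.29, -0.20 and -0.47 on the Batf-/- arrays. The groups did not overlap, with a difference of -0.27 (limma adjusted p = 0.415), but its 3 probe sets gave -0.72, -0.15 and 0.05, so the gene mean rested on 1 of them. That probe set read 0.05, 0.00 and -0.37 against -0.63, -0.65 and -1.19, and its own adjusted p was 0.198. Tnfsf10 (TRAIL), a death ligand, was higher on all 3 Batf-/- arrays with a difference of 0.16 (adjusted p = 0.731). Eda, a ligand of skin appendage development, had a difference of 0.04 over 5 probe sets.

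Among 8 costimulatory receptors 6 had differences below 0 and 4 were lower on all 3 Batf-/- arrays, while 0 were called, beside 1.14% of all genes. The median of the 8 was -0.18, beside 0.0047 over all genes. Over all 40 members the arrays of the genotypes did not overlap in 13 (32.5%), beside 12% of all genes. Of the 40, 10 were lower on all 3 Batf-/- arrays and 3 were higher, beside 6.55% and 5.5% of all genes. By unadjusted p below 0.05, 8 members were lower and 3 higher, beside 4.44% and 3.25% of all genes (7.69% in either direction).

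Tnfrsf9 (CD137), an activation-induced receptor that costimulates through TRAF adaptors, had the lowest value of the 26 receptors. It read -0.09, 0.08 and -0.01 on the Batf+/+ arrays and -0.24, -0.43 and -0.41 on the Batf-/- arrays. The groups did not overlap, and the log2 difference was -0.35 ± 0.08 (SE, n = 3 per genotype, limma adjusted p = 0.127, 95% interval -0.55 to -0.16). Its 3 probe sets did not behave alike. One gave -0.64, with 3 Batf-/- arrays at -0.56, -0.77 and -0.51, and was called by itself (adjusted p = 0.0287), another gave -0.47 (adjusted p = 0.115), and the last gave 0.04, with Batf-/- arrays from -0.35 to 0.43. The called probe set has a suffix that marks sequence shared among transcripts, and without it the gene's difference was -0.21 (adjusted p = 0.696). With array weights the gene was called (difference -0.41, adjusted p = 0.0396).

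The receptors best known from Treg cells had small values below 0. Tnfrsf18 (GITR) read -0.01, 0.00 and 0.06 on the Batf+/+ arrays and -0.21, -0.26 and -0.12 on the Batf-/- arrays, without overlap (difference -0.21 ± 0.07 SE, limma adjusted p = 0.430). Tnfrsf1b, the receptor that drives Treg expansion in response to TNF, read -0.008, 0.02 and 0.04 against -0.29, -0.28 and -0.06, also without overlap (difference -0.22 ± 0.09, adjusted p = 0.50). Its 2 probe sets gave -0.47 and 0.02, so 1 of them carried the gene's value. Tnfrsf4 (OX40) read -0.07, 0.00 and 0.12 against -0.29, -0.28 and 0.01. Batf-/- array 3 lay among the Batf+/+ arrays, and the difference of -0.21 had a 95% interval of -0.44 to 0.03 (adjusted p = 0.754).

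**Figure D3:**
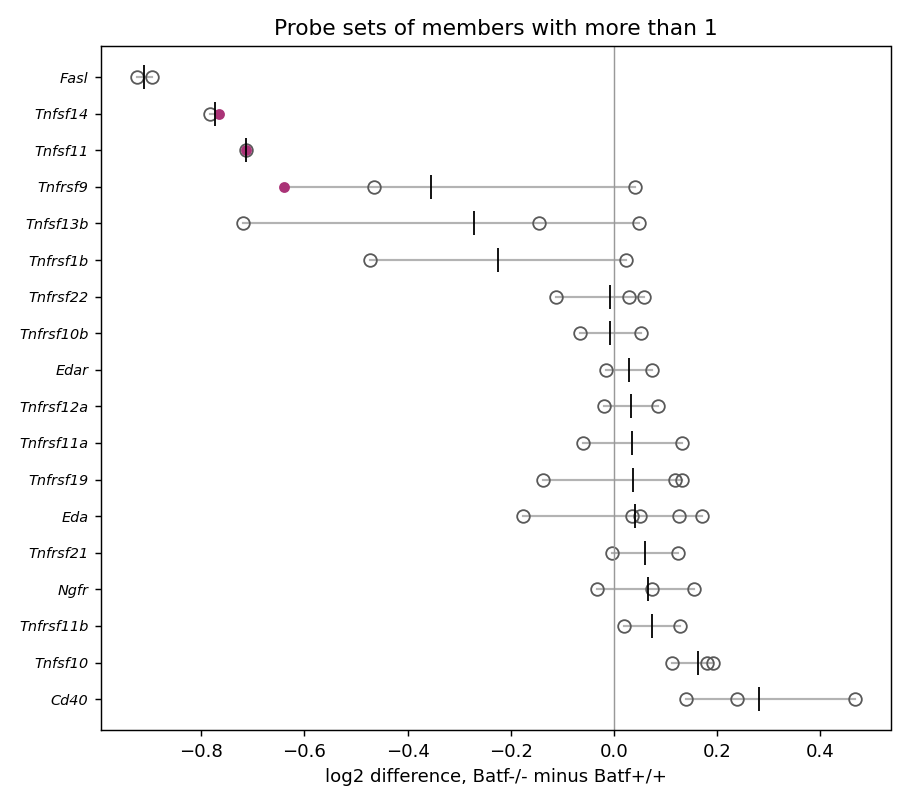
Log2 difference (Batf-/- minus Batf+/+, x axis) of each probe set of the 18 members with more than 1 probe set. Circles are probe sets, filled purple circles are those with an adjusted p below 0.05 over all probe sets, and the black tick is the gene mean. The probe sets of Tnfsf11, Tnfsf14 and Fasl lie close together, and those of Tnfrsf9, Tnfsf13b and Tnfrsf1b are spread from below -0.4 to above 0.

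The other costimulatory receptors differed less. Tnfrsf25 (DR3), the receptor of Tnfsf15 that can expand Treg cells, read 0.17, 0.00 and -0.008 on the Batf+/+ arrays and -0.12, -0.04 and -0.11 on the Batf-/- arrays, without overlap (difference -0.15, limma adjusted p = 0.820). Cd27, a receptor of naive and memory T cells, read 0.00, -0.24 and 0.07 against -0.25, -0.26 and 0.002 (difference -0.11). Tnfrsf14 (HVEM) read 0.00, 0.16 and -0.006 against 0.20, 0.10 and 0.18 (difference 0.11). Tnfrsf8 (CD30) read -0.15, 0.06 and 0.00 against 0.02, 0.03 and 0.15 (difference 0.10). The arrays of these last 3 receptors overlapped between the genotypes.

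Death and decoy receptors had no call and no separation of the arrays in any of 6 genes, with differences from -0.10 to 0.16. Over all genes 1.14% were called and 12% had separate arrays, shares at which 6 genes may hold none. Fas read 0.11, -0.14 and 0.00 on the Batf+/+ arrays and 0.08, 0.12 and 0.24 on the Batf-/- arrays. The groups overlapped, and the difference of 0.16 had a 95% interval of -0.04 to 0.36 (limma adjusted p = 0.836). Tnfrsf1a, the TNF receptor with a death domain, had the lowest difference of the group (-0.10). Tnfrsf10b, the TRAIL receptor with a death domain in mice, and the mouse decoy-type receptors Tnfrsf22 and Tnfrsf23 had differences of -0.006, -0.008 and 0.14. Tnfrsf21 (DR6) had one of 0.06.

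Receptors of B cells and antigen-presenting cells held the highest values of the members. Tnfrsf13c, the BAFF receptor, read -0.17, 0.19 and 0.00 on the Batf+/+ arrays and 0.31, 0.27 and 1.26 on the Batf-/- arrays. Batf-/- array 3 stood far above the other Batf-/- arrays, and the difference of 0.60 ± 0.24 (SE, limma adjusted p = 0.537) became 0.28 without it. Cd40, which receives the Cd40lg signal, read -0.06, -0.01 and 0.16 against 0.33, 0.26 and 0.34, without overlap (difference 0.28 ± 0.08, adjusted p = 0.263), and gave 0.27 without Batf-/- array 3. Its 3 probe sets were all above 0, from 0.14 to 0.47. Tnfrsf17 (BCMA), a receptor of plasma cells, read 0.00, 0.12 and -0.13 against 0.09, 0.65 and 0.28, with Batf-/- array 2 highest (difference 0.34, adjusted p = 0.545, and 0.19 without that array). Tnfrsf13b (TACI), a receptor of BAFF and APRIL, had a difference of -0.10 with overlapping arrays.

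The mean of the B cell markers was highest on the same array as Tnfrsf13c, though not every marker was. Of 6 measured B cell markers 4 had differences above 0 and 0 were called. The arrays of 1 (16.7%), Cd22, did not overlap, beside 12% of all genes. The mean of the 6 was -0.06 to 0.05 on the Batf+/+ arrays and 0.06, 0.07 and 0.50 on Batf-/- arrays 1, 2 and 3. Cd22, an inhibitory receptor of B cells, read 0.52, 0.43 and 1.76 on the Batf-/- arrays and between -0.004 and 0.02 on the Batf+/+ arrays (difference 0.90, limma adjusted p = 0.374). The mean on Batf-/- array 3 leaned on Cd22. Cd79b was 0.47 on Batf-/- array 3 and -0.21 and -0.37 on arrays 1 and 2. Pax5, a defining transcription factor of B cells, overlapped between the genotypes (difference -0.003). It read -0.08 on Batf-/- array 3 and 0.06 on Batf-/- array 2. The part of B cell RNA in the values of Tnfrsf13c, Cd40 and Tnfrsf17 was not tested.

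**Figure D4:**
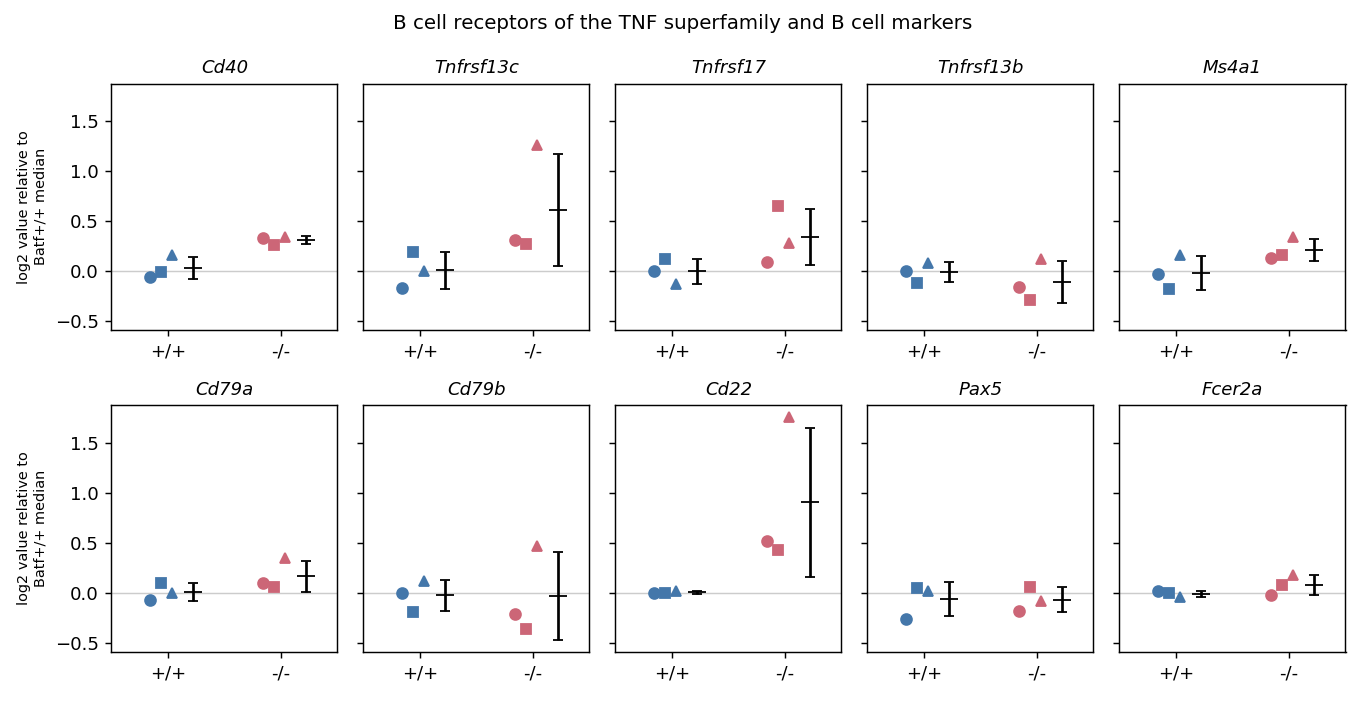
Values on each array (y axis, log2 relative to the Batf+/+ median) of 4 TNF receptors of B cells and 6 B cell markers. Blue is Batf+/+, red is Batf-/-, circle, square and triangle are arrays 1, 2 and 3, and bars are the mean ± SD. Tnfrsf13c, Cd22 and Cd79b have their highest value on Batf-/- array 3, and Cd40 has nearly the same value on the 3 Batf-/- arrays.

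The remaining 8 receptors, known mainly from stromal, epithelial, bone or neural cells, had differences between -0.02 and 0.13. Ltbr, the lymphotoxin beta receptor of stromal and myeloid cells, had the highest (0.13), and Eda2r, a receptor of an ectodysplasin isoform, the lowest (-0.02). Tnfrsf11a (RANK), Tnfrsf11b (the soluble RANKL decoy osteoprotegerin), Tnfrsf12a (the TWEAK receptor Fn14), Tnfrsf19, Ngfr (the p75 neurotrophin receptor) and Edar lay between them. The arrays of these 8 genes overlapped between the genotypes. Over all genes 12% did not overlap, a share at which 8 genes may hold none.

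Of 28 known ligand and receptor pairs, 23 had both sides measured, and the ligand was called in 5 and the receptor in 0. With 1.14% of all genes called, so few receptors may hold no call. The 5 pairs join the 3 called ligands to Fas, HVEM, the lymphotoxin beta receptor, RANK and osteoprotegerin. These 5 receptors had differences above 0, from 0.04 to 0.16, with adjusted p values from 0.836 to close to 1. The sign held for 3 of them when any 1 array was left out, while Tnfrsf11a turned to -0.04 when Batf+/+ array 1 was dropped and to -0.02 and -0.004 when Batf-/- array 2 or 3 was, and Ltbr to -0.004 when Batf-/- array 2 was. The upper end of their 95% intervals reached 0.43 (Ltbr), and the lower end of none went below -0.21. Whether a ligand and its receptor differed from each other was not tested. In the pair of Tnfsf9 with Tnfrsf9 the values were 0.14 and -0.35, and in the pairs of Tnfsf13b the ligand was at -0.27 while its receptors Tnfrsf13c, Tnfrsf17 and Tnfrsf13b were at 0.60, 0.34 and -0.10. Tnfrsf1b and Lta, which pair with each other, were both lower on all 3 Batf-/- arrays without a call.

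**Figure D5:**
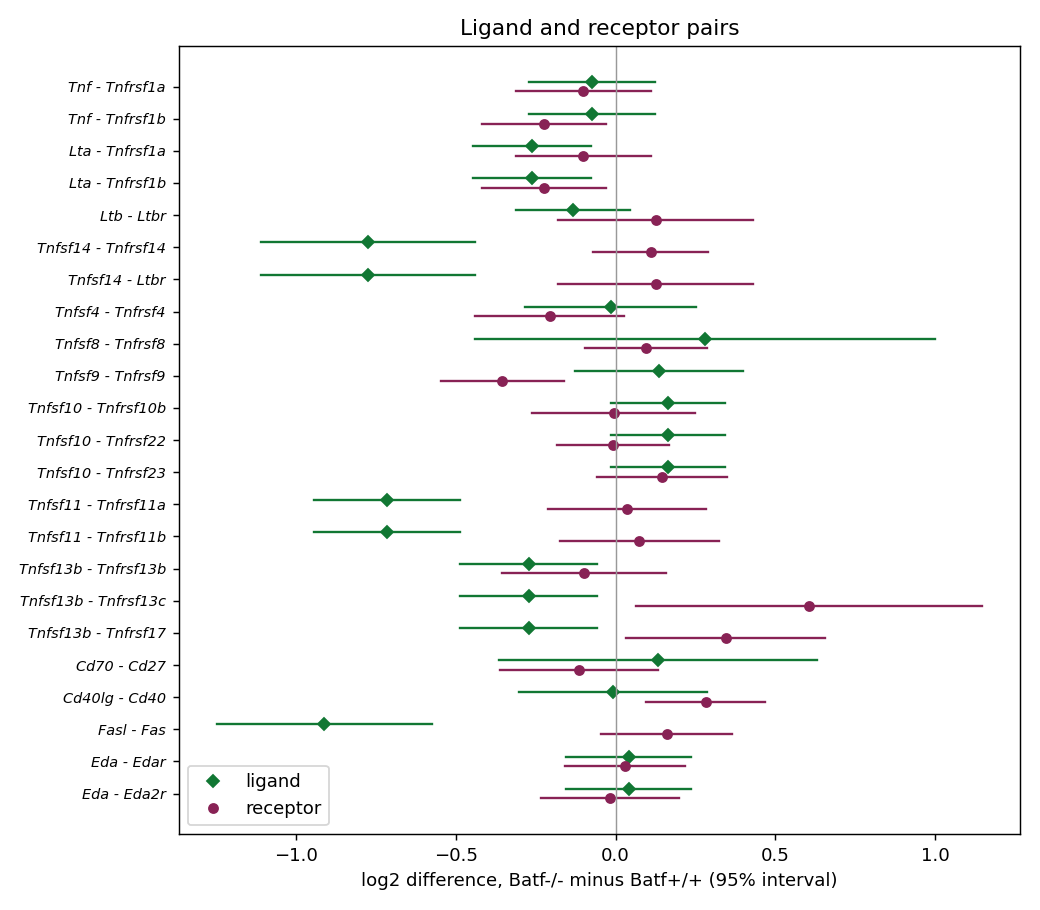
Log2 difference (Batf-/- minus Batf+/+, x axis) of the ligand (green diamond) and the receptor (purple circle) in 23 pairs, with 95% intervals from limma as bars. In the 5 pairs of Fasl, Tnfsf14 and Tnfsf11 the ligand lies below -0.7 and the interval of the receptor includes 0.

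Members that are neighbours of Fasl or Tnfsf14 in the mouse genome and were measured had no call. Gene order was taken from RefSeq (GRCm38.p6). On chromosome 17 Tnfsf9, Cd70 and Tnfsf14 are consecutive protein-coding genes, and their differences were 0.14, 0.13 and -0.77. On the same chromosome Ltb, Tnf and Lta are consecutive, at -0.13, -0.07 and -0.26. On chromosome 1 Tnfsf4, Tnfsf18 and Fasl are consecutive, with Tnfsf4 at -0.015 and Fasl at -0.91. On chromosome 4, which holds 8 of the measured members, the neighbours Tnfrsf4 and Tnfrsf18 were both at -0.21, while the neighbours Tnfrsf1b and Tnfrsf8 were at -0.22 and 0.10.

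Signalling genes downstream of the receptors had 0 calls among 25 measured, beside 1.14% of all genes, a share at which so few genes may hold none. Of 13 listed adaptors 11 were measured and 0 called, with a median of 0.04, and of 16 listed genes of the NF-kB pathway 14 were measured and 0 called, with a median of 0.004. By unadjusted p below 0.05 the 25 genes held 1 higher and 0 lower, beside 3.25% and 4.44% of all genes. That gene was Birc2, a ubiquitin ligase bound by TRAF2, which read 0.00, 0.01 and -0.22 on the Batf+/+ arrays and 0.22, 0.25 and 0.32 on the Batf-/- arrays (difference 0.33 ± 0.09 SE, limma adjusted p = 0.182). Traf2 (-0.16), Tradd (-0.15), Relb (-0.17) and Nfkbib (-0.10) were lower on all 3 Batf-/- arrays without a call, and arrays of these 25 genes did not overlap in 5 (20%), beside 12% of all genes. Traf1, an NF-kB target that binds CD137, had a difference of 0.17. Tnfaip3 (A20), an inhibitor of NF-kB, was low on the arrays numbered 3 of both genotypes, at -1.48 and -1.09, against -0.03 to 0.10 on the other 4.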

How the data were processed

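RNA of 6 samples was read on 3' expression arrays. The authors deposited RMA values, per the submitters' processing notes. Neither a version nor a log base is stated, and log2 was assumed for the deposited values, as RMA gives it. In all 45101 probe sets the median of the 3 Batf+/+ arrays is exactly 0, a centring that no label describes. It leaves differences intact and removes absolute levels, so no filter on dim probe sets was possible.

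The platform annotation named the probe sets, and those left out were 932 with several genes, 9160 with none and 64 controls. A gene was the mean of its probe sets. Genotypes were compared with limma 3.58.1 (R 4.3.3, lmFit and eBayes, two-sided), with Benjamini-Hochberg adjustment over 18193 genes. The fit was tested on simulated data. The number of arrays limits the precision.

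Values on every array are given for called members, for members without overlap at an unadjusted p below 0.05 and for 17 members known from Treg cells. Others given array by array, and the probe sets, markers and signalling genes singled out, were chosen after their values were seen. Members, lists, roles and motifs were chosen with earlier results of these data known. The same replicate numbers stand in the titles of both genotypes. Arrays with the same number deviated together from their genotype's mean, with correlations of 0.411, 0.203 and 0.439 across probe sets, all above 0.1, so the numbers were taken as pairs from the values, and the labels name nothing that pairs share. The main fit had no term for the pairs, so its SE, intervals and adjusted p values leave them out. Alternatives were the median of probe sets, single probe sets, shared-sequence probe sets left out, equal medians, quantile normalization, robust eBayes, array weights, the replicate block and leaving out each array.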

Additional observations from a re-analysis of the deposited data

How the results depend on the processing

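Over 14 alternatives the number of members lower past the threshold was 0 to 3, and the number higher was 0. It was 0 after quantile normalization, which also took the calls over all genes from 208 to 81. That step gives all arrays 1 distribution. Beforehand the SD over probe sets was 0.122 to 0.167 on the Batf+/+ arrays and 0.234 to 0.263 on the Batf-/- arrays. The part of the centring in that contrast was not tested. Leaving out each array in turn gave 0 to 3 lower members (0 without Batf+/+ array 1) and 105 to 192 genes in all. With the replicate block the lower members were the same 3, Fasl (adjusted p = 0.00489), Tnfsf14 (0.0146) and Tnfsf11 (0.0212), over 293 genes in all, so the pairing changed no call among the members. Tnfsf11 was past the threshold under 11 of the 14 alternatives, Fasl under 8, Tnfsf14 under 5 and Tnfrsf9 under 2, and all 4 were below 0 under each of them. For single probe sets a gene took the value of its probe set with the lowest adjusted p. That choice gave 1 of the 2 Tnfrsf9 calls and passed over its probe set at 0.04. In all, 18 calls were lost and 2 gained among 560 values, and 36 values of 14 members without a call changed sign. The cause of the lost calls was not tested, except that leaving out an array leaves fewer samples. A filter on dim probe sets was not run, since the values hold no absolute levels, and signal over background is not known.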

Other observations

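Left out of the comparison were 3 probe sets that name a member together with other genes. The probe set listed for Tnfsfm13, Tnfsf13 and Tnfsf12 read -0.08, 0.00 and 0.17 on the Batf+/+ arrays and -0.33, 0.12 and -0.38 on the Batf-/- arrays, with overlapping groups. The one listed for Tnfsfm13 and Tnfsf12 read -0.31, 0.00 and 0.009 against -0.29, 0.09 and 0.07, and the one listed for Tnfrsf22 and Tnfrsf23 read 0.16, -0.22 and 0.00 against 0.11, 0.02 and 0.19, both also with overlap.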
